A study of Mus musculus with 8 samples.

Results

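A set of 10 genes of the YAP/TAZ pathway were followed through mouse embryonic fibroblasts (MEFs) that had lost FIH, VHL or both. They were the coactivator genes Yap1 and Wwtr1, the latter encoding TAZ, the partner genes Tead1 and Tead2, the inhibitory kinase genes Lats1 and Lats2, and the target genes Ccn1 (formerly Cyr61), Ccn2 (formerly Ctgf), Ankrd1 and Amotl2. Members were all probe sets that the platform annotation assigns to 1 of these 10 genes alone, 24 of the 45101 on the array (10 of 18194 genes), and 1 further probe set shared by Lats2 and Xpo4 was left out. Each of the 4 groups held 2 arrays, labelled as biological replicates without saying whether they came from separate embryos or cultures, so the spread that p-values rest on may be technical. All cells were grown at 21% oxygen. Wild type cells were set against cells null for FIH, for VHL, or for both genes (VHL/FIH null, called double null here). Null cells were made by adenoviral Cre in parent lines labelled FIHdf, VHLdf and VHLdf/FIHdf, one per genotype, so genotype and parent line cannot be told apart. The parent lines carried large T antigen, a viral protein that inactivates p53 and the retinoblastoma proteins and immortalizes fibroblasts. Whether wild type cells carried it too, or received a virus, is not given. FIH is an oxygen-dependent asparaginyl hydroxylase that restrains the hypoxia-inducible factors (HIF), and VHL marks HIF alpha subunits for degradation.

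YAP and TAZ are transcriptional coactivators that have no DNA-binding domain of their own and act mainly through TEAD factors. In the Hippo pathway, MST kinases activate LATS kinases, which phosphorylate YAP and TAZ and thereby keep them in the cytoplasm or send them for degradation. Spread fibroblasts on stiff plastic hold YAP and TAZ in the nucleus, where they drive genes such as Ccn1, Ccn2, Ankrd1 and Amotl2, and Lats2 and Amotl2 are at the same time targets and inhibitors. This regulation acts largely on the proteins, which an array does not read.

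Among the genes that differed were the targets Ankrd1, Ccn2 and Ccn1 and the TEAD gene Tead2. Wwtr1 and Tead1 were not called against wild type, though Wwtr1 probe set 1437155_a_at neared the threshold in double null cells (log2 difference 0.33). Yap1 was called against wild type only in double null cells, by 0.20 in its brighter probe set. Ankrd1 was 2.2-fold lower in FIH null, 1.6-fold higher in VHL null and 3.47-fold lower in double null than in wild type cells (probe set 1420991_at). Ccn2 was 2.28-fold higher in VHL null and 2.48-fold higher in double null cells, and Ccn1 was 1.4-fold and 1.74-fold higher (1416039_x_at). Tead2 was 2.79-fold and 2.37-fold lower in these cells. The Ankrd1, Ccn2 and Tead2 differences named here kept direction and limma call in every other fit tried and with every single array left out. The Ankrd1 rise in VHL null cells is under 2-fold, so a 2-fold minimum would drop it.

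Each probe set has a MAS5 signal, an intensity on a linear scale. Differences are between group means of log2(signal + 16), which understates those of low signals. They were tested with limma, with Benjamini-Hochberg adjustment over the 24517 probe sets above a signal of 291.3 on at least 2 arrays, and called past an adjusted p of 0.05. All 24 member probe sets passed that filter. Trimmed means of the arrays were equal as deposited, so every change is relative to the array's mean level. Spiked hybridization controls read 0.26, 0.38 and 0.52 higher (log2) in FIH null, VHL null and double null than in wild type cells, and scaling to them shifts the median log2 difference from wild type over all probe sets to -0.26 in FIH null, -0.45 with VHL lost and -0.58 with both lost. Called differences of the members whose direction turns on that scale are named with each gene. Median centring turned the share of higher probe sets among those called from 26.8% to 64.4% in FIH null, from 37.5% to 53.2% in VHL null cells and from 41.3% to 54.3% in double null cells.

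Transcripts of the deleted genes were read first. Vhl signal (probe set 1434708_at) was 3269 and 3319.6 in wild type, 3534 and 3426 in FIH null, 708 and 754 in VHL null and 1061 and 897 in double null cells, and fell by 2.15 on the log2 scale with VHL lost and 1.74 with both lost (limma adjusted p = 5.87e-07 and 1.37e-06). The other Vhl probe set (1421071_at) fell by 2.53 and 2.19 (limma adjusted p = 4.52e-06 and 7.36e-06). Vhl was higher in double null than in VHL null cells, by 0.41 in 1434708_at and 0.35 in 1421071_at. Only the first was called (limma adjusted p = 0.0188 and 0.167). Hif1an, the FIH gene (1428576_at), read 2722 and 3013 in wild type, 1676 and 1707 in FIH null, 1913 and 2153 in VHL null and 1404 and 1169 in double null cells. It was lower than in wild type in all 3 null groups, VHL null cells included (log2 difference -0.49, limma adjusted p = 0.00886). A low probe set of the same accession (1452845_at) did not show this in VHL null cells (0.16, 0.716). It was -1.12 in FIH null and -1.34 in double null cells (limma adjusted p = 0.072 and 0.00646). The third (1447817_at), above the cutoff on 3 arrays, was not called against wild type. Deleted exons are not given, so a probe set outside them would not show the deletion. Of 10 fibroblast markers 8 were above the cutoff on all arrays, among them the collagen genes Col1a1 and Col1a2. Thy1 was above it on 3 of 8 arrays and Pdgfra was below it on both double null arrays. Summed signals of the 10 were 307219 to 324650 in wild type and 365643 to 389875 in FIH null cells. They were 318503 to 324748 in VHL null and 317113 to 362232 in double null cells. Single markers moved unlike each other. Means in wild type, FIH null, VHL null and double null cells were 4884, 12490, 795 and 2128 for Postn and 11741, 11297, 21262 and 26067 for Col3a1. Summed signals of 6 epithelial markers were 1545 to 1638 in VHL null and 1290.3 to 1599 in double null against 2642 to 3155 in wild type and 2906 to 2944 in FIH null cells. Krt18, at 1356 and 1393 in wild type and 631 and 684 in VHL null cells, was the only 1 of them above the cutoff on all arrays, and Cdh1 and Cldn4 were below it on all. Macrophage markers summed to 3978 to 4198 in VHL null, 3168 to 3319 in wild type, 3109 to 3178 in FIH null and 2976 to 3218 in double null cells, with 3 of 6 above the cutoff on all arrays and Ptprc, Adgre1 and Itgam below it on all. Endothelial markers had 0 of 6 above it on all arrays. Of 8 striated muscle markers, looked at because Ankrd1 is a muscle gene, 0 were above the cutoff on all arrays. Whether these cell type markers had a part in the results was not tested. In bulk RNA, a change in the share of a cell type and a change in RNA per cell cannot be told apart.

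Against wild type cells, 5 of 24 member probe sets were called in FIH null cells (4.33% of all tested), 14 in VHL null cells (35.3%) and 13 in double null cells (34.1%). With FIH lost alone, 0 rose and 5 fell by limma (1.16% and 3.17% of all tested), with a median log2 difference of -0.092 over the 24 beside -0.001 over all probe sets. At an unadjusted p under 0.05 the counts were 0 and 8. In VHL null cells 13 rose and 1 fell (13.2% and 22.1%), with a median of 0.33 beside -0.073 over all probe sets. In double null cells 10 rose and 3 fell (14.1% and 20%), with a median of 0.30 beside -0.059. These splits turned with scaling to hybridization controls, where 16 fell and 0 rose in FIH null, 4 rose and 7 fell in VHL null and 5 rose and 11 fell in double null cells. The VHL null count was 8 without VHL null replicate 1, and the FIH null count was 2 without wild type replicate 2 or either FIH null array. Several of the 24 probe sets read the same gene, so these counts take some genes more than once. Members were chosen with earlier results of these data known, so counts and medians set beside those of all probe sets only describe them. With each gene by its brightest probe set, 2 of 10 members were called in FIH null cells (5.29% of all genes). In VHL null cells 7 were called (41.4%), and in double null cells 8 (39.1%). Comparisons with wild type share its 2 arrays, so their values are set side by side and not counted as separate evidence.

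**Figure D1:**
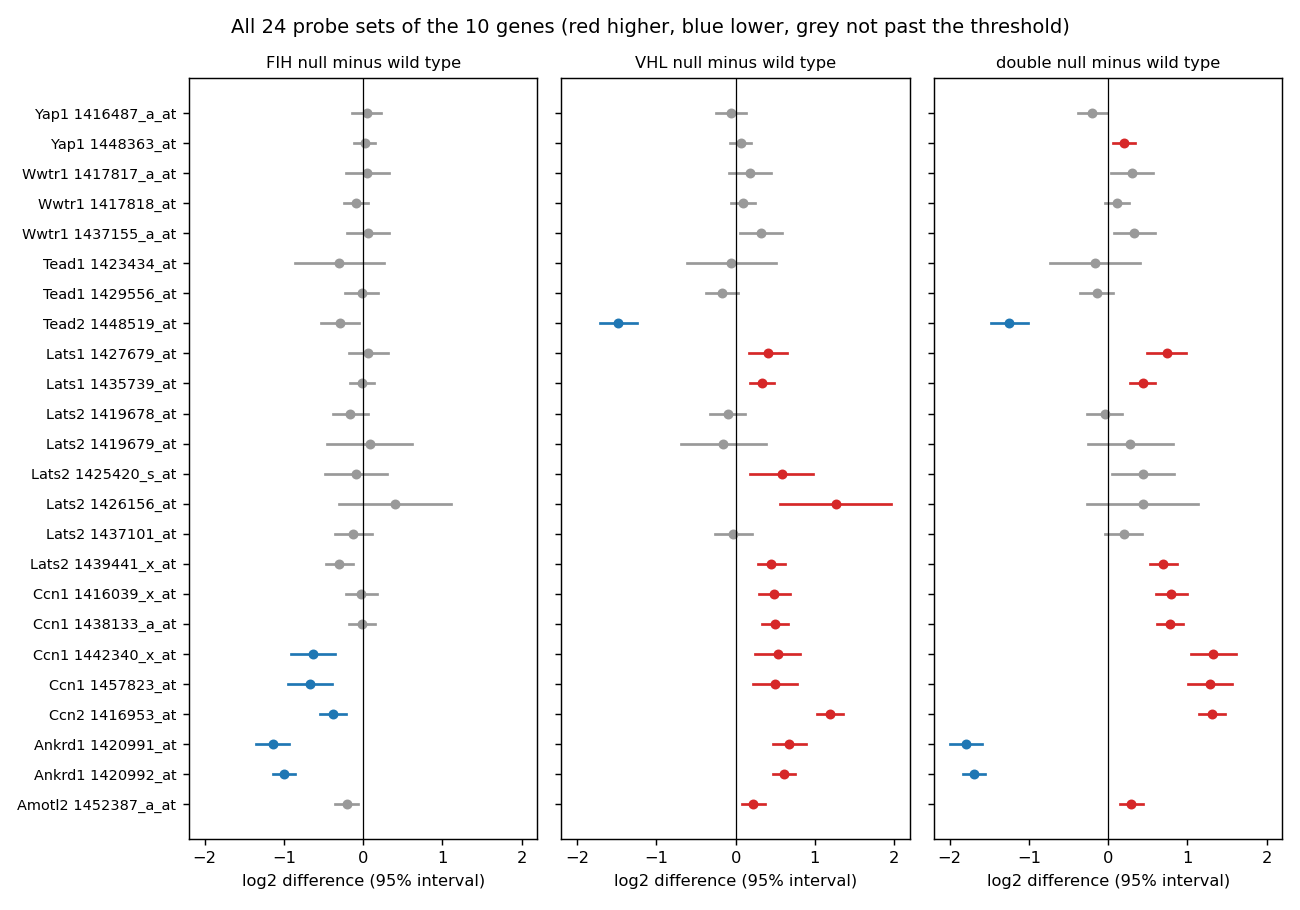
Log2 differences from wild type (x axis) of the 24 member probe sets (y axis) in FIH null, VHL null and double null cells, with limma's 95% intervals, red for higher, blue for lower and grey for not past the threshold. Ankrd1 is blue, red and blue across the panels, Ccn2 blue, red and red, and Tead2 is grey, blue and blue.

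The coactivators had few called differences. The brighter Yap1 probe set (1448363_at) read 14651 and 13924 in wild type, 14627 and 14357 in FIH null, 15217 and 14665 in VHL null and 16890.3 and 15950 in double null cells. Wild type and FIH null arrays overlapped, VHL null arrays lay just above them, and both double null arrays lay above all others. Its log2 difference from wild type was 0.021 in FIH null (95% interval -0.11 to 0.15) and 0.065 in VHL null cells (-0.069 to 0.20), neither past the threshold (limma adjusted p = 0.894 and 0.438), and it rose by 0.20 in double null cells (limma adjusted p = 0.0258). Scaled to hybridization controls, the 3 differences turned to -0.24, -0.31 and -0.32, all past the threshold (limma adjusted p = 0.0223, 0.0019 and 0.00115). The call of the rise ended without a variance trend (0.0841) or with only the compared groups fitted (0.0734), and without wild type replicate 2 (limma adjusted p = 0.143) or double null replicate 1 (0.104). The dimmer Yap1 probe set (1416487_a_at), of the same accession, went the other way. It read 2785 and 2617 in wild type, 2769 and 2809 in FIH null, 2633 and 2547 in VHL null and 2359 and 2335 in double null cells, with a log2 difference of -0.20 between double null and wild type cells that was not called (limma adjusted p = 0.0891). Against FIH null cells the double null signal rose by 0.18 in the first and fell by 0.25 in the second probe set (limma adjusted p = 0.0375 and 0.0388), so the array gives no single direction for Yap1. Both of these calls ended without either FIH null array (limma adjusted p from 0.115 to 0.17 and from 0.127 to 0.158) or without double null replicate 1 (0.141 and 0.0812), and that of the second also without double null replicate 2 (0.102). The rise turned to -0.085 with scaling to hybridization controls. Its call also ended without a filter (0.0645), with median centring (0.0945), without a variance trend (0.102) or with only the compared groups fitted (0.0615), and that of the fall without a filter (0.0543), with quantile normalization (0.104) or with only the compared groups fitted (0.0574).

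Wwtr1 was read by 3 probe sets, 0 of which limma called against wild type (at an unadjusted p under 0.05, 0 in FIH null, 1 with VHL lost and 2 with both lost). The brightest (1417818_at) read 17867 and 17315 in wild type, 16698 and 16263 in FIH null, 18362 and 19051 in VHL null and 20247 and 17883 in double null cells. FIH null arrays were lowest, and VHL null and double null arrays overlapped just above wild type. The log2 difference was -0.094 in FIH null, 0.089 with VHL lost and 0.11 with both lost (95% intervals -0.24 to 0.057, -0.062 to 0.24 and -0.037 to 0.26; limma adjusted p = 0.516, 0.341 and 0.227). Without double null replicate 2 the last became a call (limma adjusted p = 0.0403), and with scaling to hybridization controls the last 2 turned to -0.29 and -0.41. The other Wwtr1 probe sets, 1417817_a_at and 1437155_a_at, were 0.30 and 0.33 higher in double null than in wild type cells, near but not past the threshold (limma adjusted p = 0.0809 and 0.0521), and passed with median centring (0.0261 and 0.0179) or quantile normalization (0.0487 and 0.0276). Scaled to hybridization controls they turned to -0.23 and -0.19. Wild type replicate 1 was their lowest array, at 4593 and 4272, against 5857 and 5592 on wild type replicate 2. Without wild type replicate 2 both were called in double null cells (limma adjusted p = 0.016 and 0.00546). They were then called in VHL null cells too (0.0492 and 0.00668). Double null exceeded FIH null cells by 0.21 in the brightest probe set (limma adjusted p = 0.0338), a call that ended without either FIH null array (0.0959 and 0.159) or double null replicate 1 (0.183) and turned to -0.057 with scaling to hybridization controls. That call also ended without a filter (0.0613), with quantile normalization (0.0665), with median centring (0.0528), without a variance trend (0.108) or with only the compared groups fitted (0.0656).

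TEAD1 and TEAD2 are DNA-binding partners of the coactivators, and TEAD2 is best known from embryonic cells. Tead2 (1 probe set, 1448519_at) read 5357 and 5483 in wild type, 4288 and 4567 in FIH null, 1734 and 2157 in VHL null and 2386 and 2173 in double null cells. The 4 arrays without VHL lay between 1734 and 2386, well below the lowest array with VHL at 4288. It fell in VHL null cells (log2 difference -1.48, SE 0.108, adjusted p = 6.23e-06, limma) and in double null cells (log2 difference -1.25, SE 0.108, adjusted p = 1.2e-05, limma), and was also lower in double null than in FIH null cells (-0.95, adjusted p = 6.71e-05, limma). The FIH null difference of -0.29 on the log2 scale fell short of the threshold although the arrays did not overlap (limma adjusted p = 0.183, 95% interval -0.53 to -0.053), and passed scaled to hybridization controls (0.00424). Between double null and VHL null cells it was 0.23 (-0.0049 to 0.47; limma adjusted p = 0.13), called only without VHL null replicate 2 (0.0279).

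Tead1 was not called in any of the 6 contrasts by either of its 2 probe sets, nor did any pass at an unadjusted p under 0.05 (limma). The brighter (1429556_at) read 8613 and 9799 in wild type, 9179.5 and 8983 in FIH null, 7835 and 8496 in VHL null and 9081 and 7627 in double null cells. VHL null arrays lay below those of wild type and FIH null cells, and double null arrays overlapped all other groups. Its log2 difference was -0.017 in FIH null, -0.17 with VHL lost and -0.14 with both lost, and the 95% intervals reached no further than -0.38 and 0.19. Scaled to hybridization controls it fell in all 3 null groups (limma adjusted p = 0.0369, 0.000277 and 4.32e-05). The other (1423434_at) had signals of 315 to 524.2, near the cutoff, and intervals too wide to read a size (-0.86 to 0.27 in FIH null cells).

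LATS1 and LATS2 are the kinases that restrain YAP and TAZ. Both Lats1 probe sets were higher wherever VHL was lost. The brighter (1435739_at) read 8646 and 7959 in wild type, 8356 and 8115 in FIH null, 10429 and 10499.5 in VHL null and 10738 and 11727 in double null cells, so that the 4 arrays without VHL lay above the 4 with it. It rose in VHL null cells (log2 difference 0.33, SE 0.0693, adjusted p = 0.00406, limma) and double null cells (0.44, adjusted p = 0.000799, limma), rises that turned to -0.044 and -0.088 with scaling to hybridization controls. The dimmer (1427679_at) read 1323 and 1344 in wild type, 1320.4 and 1481 in FIH null, 1865 and 1679 in VHL null and 2216 and 2252 in double null cells. It rose by 0.40 and 0.74 (limma adjusted p = 0.0156 and 0.000496), the first a call that ended without wild type replicate 1 (limma adjusted p = 0.0688), wild type replicate 2 (0.0515) or VHL null replicate 1 (0.101). Scaled to hybridization controls, both calls ended (0.868 and 0.14). The differences in FIH null cells were -0.011 and 0.068, neither called (limma adjusted p = 0.957 and 0.796). Double null exceeded FIH null cells by 0.45 and 0.67 (limma adjusted p = 0.000571 and 0.000764), the first 0.0819 with scaling to hybridization controls. A difference of 0.33 between double null and VHL null cells in the dimmer probe set (limma adjusted p = 0.0409) ended with any 1 of the 8 arrays left out (from 0.0508 to 0.199), and without a filter (0.0626), with quantile normalization (0.104), with median centring (0.0629), with scaling to hybridization controls (0.281), with array weights (0.0655) or with only the compared groups fitted (0.0558).

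Lats2 had 6 probe sets, which did not move alike. The brightest (1439441_x_at, of a kind that can cross-hybridize) read 7712 and 8449.5 in wild type, 6621 and 6463 in FIH null, 11108 and 10999 in VHL null and 12279 and 13969 in double null cells. FIH null arrays were lowest and double null arrays highest, and no groups overlapped. It rose in VHL null cells (log2 difference 0.45, SE 0.0763, adjusted p = 0.00127, limma) and double null cells (0.70, adjusted p = 6.66e-05, limma), calls lost once arrays were scaled to hybridization controls (log2 difference 0.074 and 0.17; limma adjusted p = 0.498 and 0.108). With FIH lost alone its log2 difference was -0.30, just short of the threshold (limma adjusted p = 0.0543), and called with several other settings (limma adjusted p = 0.0431 with quantile normalization and 0.0278 without double null replicate 1, 0.0281 without replicate 2). Double null exceeded VHL null cells by 0.24 (limma adjusted p = 0.0342), a call that ended without either FIH null array (0.0538 and 0.0536), either VHL null array (0.11 and 0.124) or double null replicate 2 (0.193). It also ended without a filter (0.0566), with median centring (0.058), with scaling to hybridization controls (0.452), without a variance trend (0.105) or with only the compared groups fitted (0.053).

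Of the other Lats2 probe sets, 1425420_s_at (0.58) and 1426156_at (1.26) also rose in VHL null cells (limma adjusted p = 0.0272 and 0.011). Their signals were low, at 597.5 to 1135 and 241.7 to 902.7, and both calls ended without wild type replicate 2 (limma adjusted p = 0.139 and 0.0664) or VHL null replicate 1 (0.103 and 0.106), that of the first also without VHL null replicate 2 (0.094), without a filter (0.0518) or with scaling to hybridization controls (0.349). The remaining 3, 1437101_at, 1419678_at and 1419679_at, were not called in VHL null cells, with log2 differences of -0.031, -0.10 and -0.16. For 1437101_at, which read 4032 and 4777 in wild type, 3941 and 4115 in FIH null, 3914 and 4713 in VHL null and 5130.3 and 4948 in double null cells, the interval of -0.26 to 0.20 did not reach the 0.45 of the brightest. Its double null difference of 0.20 was not called (limma adjusted p = 0.176) and turned to -0.33 with scaling to hybridization controls (0.0167). Nor were 1425420_s_at (0.44), 1426156_at (0.43), 1419678_at (-0.042) and 1419679_at (0.28) called in double null against wild type cells (limma adjusted p = 0.081, 0.321, 0.785 and 0.411). Against FIH null cells, double null cells were 2-fold higher in the brightest probe set (limma adjusted p = 4.13e-06), 1.44-fold in 1425420_s_at (0.0378) and 1.25-fold in 1437101_at (0.034). The last 2 calls ended without FIH null replicate 1 (limma adjusted p = 0.28 and 0.152), double null replicate 1 (0.152 and 0.121) or double null replicate 2 (0.0666 and 0.0796), that of 1437101_at also without FIH null replicate 2 (0.0867), and that of 1425420_s_at also without VHL null replicate 1 (0.0546) or 2 (0.0541). Other settings that ended the 1425420_s_at call were those without a filter (0.0698), with scaling to hybridization controls (0.244), without a variance trend (0.0582), with array weights (0.0519) or with only the compared groups fitted (0.0653), and for 1437101_at those without a filter (0.0561), with scaling to hybridization controls (0.675) or without a variance trend (0.098).

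**Figure D2:**
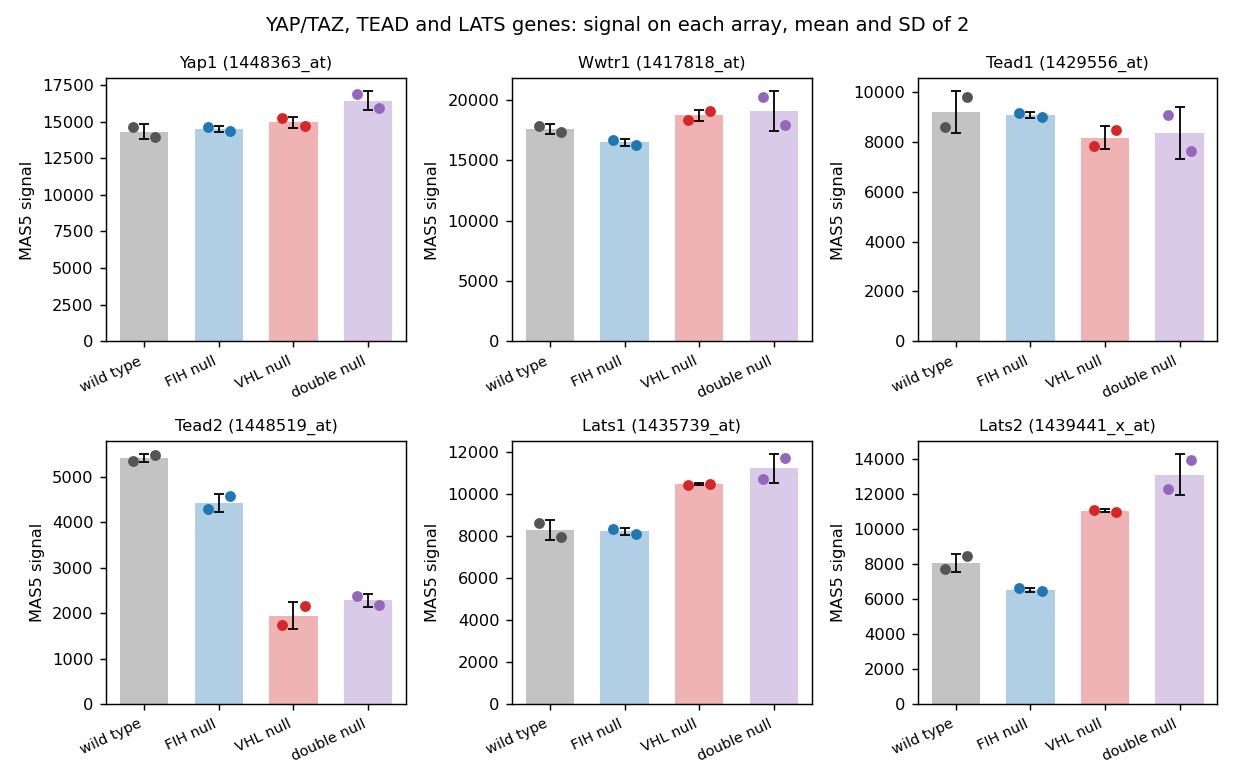
MAS5 signal (y axis) of the brightest probe set of Yap1, Wwtr1, Tead1, Tead2, Lats1 and Lats2 in the 4 groups (x axis), with points for arrays, bars for the mean and error bars for the SD of 2 arrays. In these probe sets Tead2 drops and Lats1 and Lats2 rise where VHL is lost, while Yap1, Wwtr1 and Tead1 stay near their wild type level.

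Promoters of the 3 target genes held in RefSeq's table (GRCm38.p6) are shown for the TEAD core, since TEAD factors carry YAP and TAZ to DNA. They are the 250 bases before the annotated start, 5′ to 3′ on the gene's strand, with the TEAD core GGAATG, or CATTCC where it lies on the other strand, in capitals.
Ankrd1 promoter (chr19:36119845-36120094, minus strand): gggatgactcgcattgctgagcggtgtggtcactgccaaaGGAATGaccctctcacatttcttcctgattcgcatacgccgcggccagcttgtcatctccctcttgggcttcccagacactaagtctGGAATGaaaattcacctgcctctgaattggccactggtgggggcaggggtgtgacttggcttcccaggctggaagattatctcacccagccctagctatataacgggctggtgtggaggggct
Ccn1 promoter (chr3:145649986-145650235, minus strand): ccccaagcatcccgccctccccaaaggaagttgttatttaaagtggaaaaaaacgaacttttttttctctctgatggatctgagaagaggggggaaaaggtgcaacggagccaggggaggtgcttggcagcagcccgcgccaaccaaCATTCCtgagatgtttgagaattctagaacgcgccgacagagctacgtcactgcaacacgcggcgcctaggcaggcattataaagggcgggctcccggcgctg
Amotl2 promoter (chr9:102717554-102717803, plus strand): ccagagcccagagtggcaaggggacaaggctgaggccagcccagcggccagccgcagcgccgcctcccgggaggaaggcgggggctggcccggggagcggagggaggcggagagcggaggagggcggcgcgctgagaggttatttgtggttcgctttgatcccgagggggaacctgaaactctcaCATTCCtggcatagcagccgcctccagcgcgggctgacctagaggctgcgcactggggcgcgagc
The Ankrd1 window held the core at 210 and 123 bases before the start, the Ccn1 window at 103 and the Amotl2 window at 65. Of all 32851 promoter windows of this length in the table, 12.6% held the core on either strand. Among the members 8 of 10 genes matched the table, all but Ccn2 and Tead1, and 5 of them held it. Yap1 and Wwtr1 are the other 2, shown by 30 bases around the core:
Yap1 window (chr9:8004720-8004749, minus strand): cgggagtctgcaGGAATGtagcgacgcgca
Wwtr1 window (chr3:57576029-57576058, minus strand): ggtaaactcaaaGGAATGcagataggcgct
The HIF core (ACGTG or GCGTG, either strand) was in 5 of the 8 genes, Yap1, Wwtr1, Lats1, Lats2 and Ccn1. Of all windows 38.6% held it. The 8 genes had 10 windows, so for either core a count of genes is not like a share of windows. Not every window of Wwtr1 and Lats2 held the HIF core. Neither the Ankrd1 nor the Amotl2 window held those letters. The CArG box, bound by the serum response factor, was in 0 of the 8 genes and 1.47% of all windows. A match describes letters and is not a measured binding site.

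Ankrd1, which encodes a nuclear ankyrin-repeat protein of stressed muscle and is a standard reporter of YAP activity, differed between all pairs of groups compared. Probe set 1420991_at read 17024 and 17705 in wild type, 8024 and 7710 in FIH null, 28743 and 26884 in VHL null and 4478 and 5578 in double null cells. The groups stood apart in the order VHL null, wild type, FIH null and double null, with no overlap between neighbours. It fell in FIH null (log2 difference -1.14, SE 0.0928, adjusted p = 4.75e-05, limma), rose in VHL null (log2 difference 0.68, SE 0.0928, adjusted p = 0.000371, limma) and fell in double null cells (log2 difference -1.79, SE 0.0928, adjusted p = 2.85e-07, limma). Double null cells were 5.55-fold lower than VHL null cells (log2 difference -2.47) and 1.57-fold lower than FIH null cells (-0.65; limma adjusted p = 4.97e-08 and 0.000318).

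The second Ankrd1 probe set (1420992_at), of the same accession, read 16820.2 and 16699.9 in wild type, 8226 and 8535 in FIH null, 25948 and 25355 in VHL null and 4970.1 and 5388 in double null cells and kept the same order without overlap. Its log2 differences from wild type were -0.999, 0.61 and -1.69 (limma adjusted p = 7.93e-06, 5.97e-05 and 2.96e-08). Ankrd1 signal was thus higher in VHL null than in wild type cells, and lower in double null than in FIH null cells (-0.69, limma adjusted p = 1.37e-05).

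Ccn2 encodes connective tissue growth factor, a secreted matrix-associated protein of fibroblasts. Its probe set (1416953_at) read 24002 and 27258 in wild type, 19890.4 and 19270.1 in FIH null, 59777 and 56814 in VHL null and 66579.6 and 60423 in double null cells. The 4 arrays without VHL, from 56814 upward, were all more than the highest array with VHL at 27258. Ccn2 rose in VHL null (log2 difference 1.19, SE 0.0739, adjusted p = 2.21e-06, limma) and double null cells (log2 difference 1.31, SE 0.0739, adjusted p = 5.13e-07, limma) and was 3.24-fold higher in double null than in FIH null cells (log2 difference 1.70, limma adjusted p = 7.71e-08). Between double null and VHL null cells the difference of 0.12 was not called (95% interval -0.042 to 0.29, limma adjusted p = 0.246). With FIH lost alone it fell by 0.39 on the log2 scale (limma adjusted p = 0.0143), a call that ended without wild type replicate 2 (0.115), FIH null replicate 1 (0.0745) or FIH null replicate 2 (0.111) and without a variance trend (0.129).

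Ccn1, an immediate-early gene of stimulated fibroblasts, encodes a related matricellular protein. Of its 4 probe sets, 1416039_x_at and 1438133_a_at were bright and 1442340_x_at and 1457823_at, which share an accession, were dimmer. Probe set 1438133_a_at read 33856 and 32522 in wild type, 32338 and 33269 in FIH null, 48469 and 45346 in VHL null and 61447 and 53157 in double null cells, and 1416039_x_at read 46239 and 42849.9 in wild type, 46053 and 41714 in FIH null, 63216 and 61567 in VHL null and 85131 and 70232 in double null cells. In both, wild type and FIH null arrays overlapped, VHL null arrays were higher and double null arrays highest. The dimmer 1457823_at read 4354 and 4870.1 in wild type, 2897 and 2882 in FIH null, 6508 and 6511 in VHL null and 13257 and 9609 in double null cells, with FIH null arrays now below wild type, and its partner 1442340_x_at read 4250.1 and 4745 in wild type, 3076 and 2719.5 in FIH null, 6802 and 6193 in VHL null and 13102 and 9755 in double null cells.

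All 4 Ccn1 probe sets rose in VHL null cells, by 0.49, 0.50, 0.53 and 0.50 in the order named (limma adjusted p = 0.00194, 0.000552, 0.00896 and 0.0109). With scaling to hybridization controls these calls ended (log2 differences from 0.11 to 0.15). The calls of the dimmer pair also ended without wild type replicate 1 (limma adjusted p = 0.0634 and 0.0755) or VHL null replicate 1 (0.0696 and 0.0553), and that of 1457823_at without VHL null replicate 2 (0.0545). Both ended without a variance trend too (0.0556 and 0.0617). In double null cells the 4 rose by 0.80, 0.78, 1.33 and 1.29 (largest limma adjusted p = 7.35e-05), and against FIH null cells by 0.82, 0.80, 1.96 and 1.96. The dimmer pair thus gave differences of 3.89-fold each where the bright pair gave 1.76-fold and 1.74-fold.

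The pairs parted in FIH null cells. The bright probe sets were not called (log2 difference -0.022 and -0.017, 95% intervals -0.22 to 0.17 and -0.18 to 0.14), while the dimmer pair fell by 0.63 and 0.67 (limma adjusted p = 0.0188 and 0.0124). Both falls ended without wild type replicate 2 (limma adjusted p = 0.118 and 0.0874), FIH null replicate 1 (0.0506 and 0.0754) or FIH null replicate 2 (0.142 and 0.074), and without a variance trend (0.139 and 0.116). Scaled to hybridization controls, the bright pair fell too (limma adjusted p = 0.0176 and 0.016). Double null exceeded VHL null cells in all 4, by 0.31 and 0.29 in the bright and 0.80 and 0.79 in the dimmer pair (limma adjusted p = 0.0232, 0.0137, 0.00105 and 0.000966). The bright pair lost this call without VHL null replicate 2 (limma adjusted p = 0.115 and 0.104) or double null replicate 1 (0.13 and 0.0679), and 1416039_x_at also without VHL null replicate 1 (0.0834). Both also lost it with scaling to hybridization controls (log2 difference 0.16 and 0.14; limma adjusted p = 0.123 and 0.166) and without a variance trend (0.105 and 0.0757).

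Amotl2, a junction-associated protein gene that is both induced by YAP and able to hold it back, had smaller differences in VHL null and double null cells than the other targets did. Its probe set (1452387_a_at) read 17751 and 17099 in wild type, 14722 and 15429.6 in FIH null, 20274 and 20441 in VHL null and 22572 and 20229 in double null cells. FIH null arrays were lowest, and VHL null and double null arrays overlapped above wild type. It rose in VHL null (log2 difference 0.22, SE 0.0658, adjusted p = 0.0227, limma) and double null cells (log2 difference 0.29, SE 0.0658, adjusted p = 0.00592, limma), rises that turned to -0.15 and -0.23 with scaling to hybridization controls. The VHL null call ended with quantile normalization (limma adjusted p = 0.0901), without a variance trend (0.0855) and without either wild type array (0.0572 and 0.111) or either VHL null array (0.0821 and 0.0957). The FIH null log2 difference of -0.21 was not called (limma adjusted p = 0.119, and 0.000995 scaled to hybridization controls), and double null exceeded FIH null cells by 0.50 (0.000182).

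**Figure D3:**
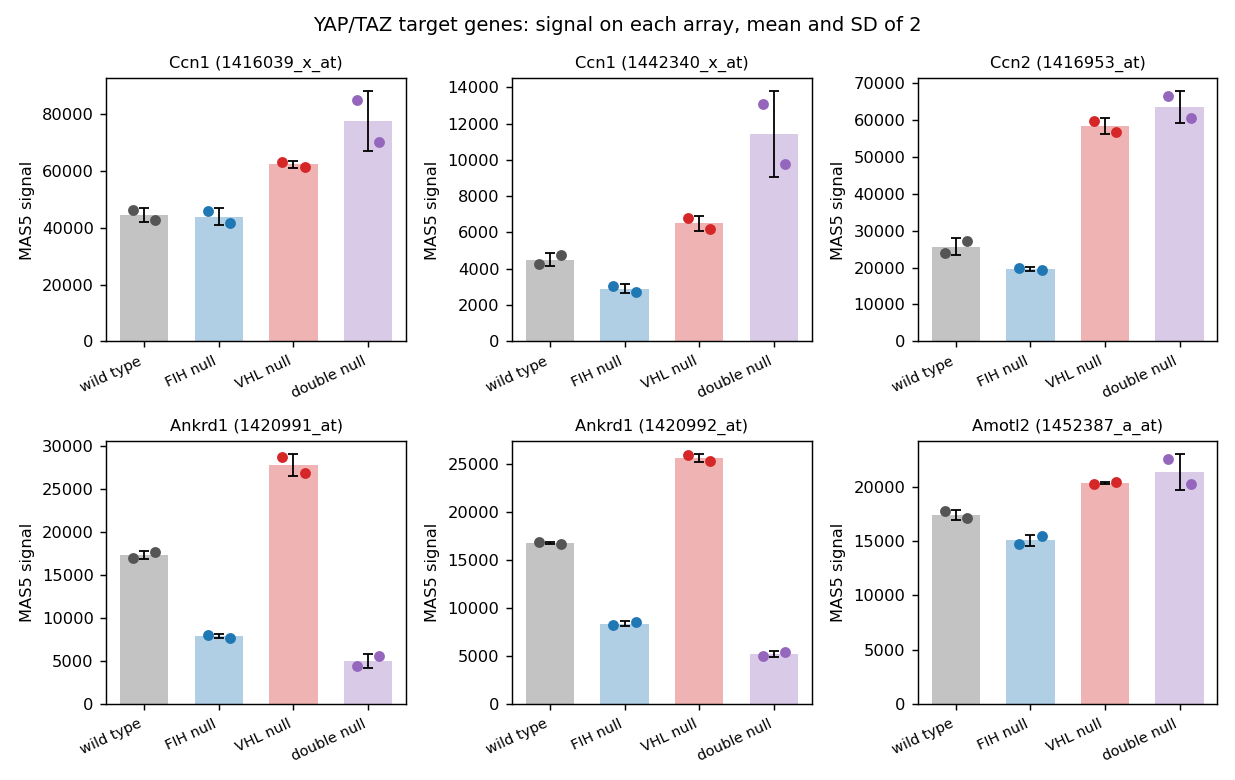
MAS5 signal (y axis) of Ccn1 (a bright and a dimmer probe set), Ccn2, Ankrd1 (both probe sets) and Amotl2 in the 4 groups (x axis), with points for arrays, bars for the mean and error bars for the SD of 2 arrays. Ccn1, Ccn2 and Amotl2 are high in VHL null and double null cells, whereas Ankrd1 is highest in VHL null and lowest in double null cells.

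Differences between cells without and with FIH were compared in the absence and presence of VHL, through pairs of groups that share no array. Each null genotype had its own parent line, so in these pairs an effect of FIH loss and one of line cannot be told apart. Between double null and VHL null cells 8 of 24 member probe sets were called, 6 up and 2 down (all probe sets: 16% up, 13.8% down, 29.8% in all). Between double null and FIH null cells 17 were called, 13 up and 4 down (16.8% and 21.5%, 38.3% in all). With scaling to hybridization controls the splits were 2 up and 4 down and 8 up and 5 down. The first count was 5 without VHL null replicate 1 or double null replicate 1. The interaction is the difference of double null from VHL null cells minus that of FIH null from wild type cells. It passed for 7 of 24 probe sets, 5 above and 2 below 0 (all probe sets: 8.96% and 6.76%, 15.7% in all). The share above 0 among all called probe sets was 57%, and 36.3% with median centring, where 4 member probe sets were above 0 and 2 below. With scaling to hybridization controls 8 were above and 2 below. With each gene by its brightest probe set, 3 of 10 members were called between double null and VHL null cells (35% of all genes). Between double null and FIH null cells 9 were called (43.6%), and the interaction passed for 4 (19.1%).

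Ankrd1 had a negative interaction in both probe sets (-1.33 and -1.31, limma adjusted p = 0.000116 and 8.39e-06). On the log2 scale FIH null cells were 1.14 and 0.999 lower than wild type, and double null cells 2.47 and 2.31 lower than VHL null cells. Ccn1's dimmer pair had positive interactions of 1.43 and 1.46 (limma adjusted p = 0.000538 and 0.000415). Its signal was lower in FIH null than in wild type cells and higher in double null than in VHL null cells. The bright pair's 0.33 and 0.30 did not pass (limma adjusted p = 0.102 and 0.0746), though they did with quantile normalization (0.00287 and 0.00738) and without double null replicate 2 (0.0132 and 0.0123). Ccn2 (0.51, adjusted p = 0.00878, limma), Lats2 in its brightest probe set (0.55, adjusted p = 0.00713, limma) and Tead2 (0.52, adjusted p = 0.0411, limma) were positive as well. No other Lats2 probe set passed. The low 1426156_at was at -1.23 (limma adjusted p = 0.0923), and the rest lay from -0.053 to 0.35. Without a variance trend the Ccn2 and Lats2 calls ended (limma adjusted p = 0.0721 and 0.0549), and the Tead2 call ended without a filter (0.0669), with quantile normalization (0.0758), with median centring (0.0704) or without a variance trend (0.114). The Tead2 call also ended with 6 of 8 single arrays left out, which were both wild type arrays, both FIH null arrays, VHL null replicate 1 and double null replicate 1 (limma adjusted p from 0.0805 to 0.138). Amotl2 was at 0.28 without passing (limma adjusted p = 0.0696, and 0.0217 without double null replicate 2), and Yap1, Wwtr1, Tead1 and Lats1 were not called.

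**Figure D4:**
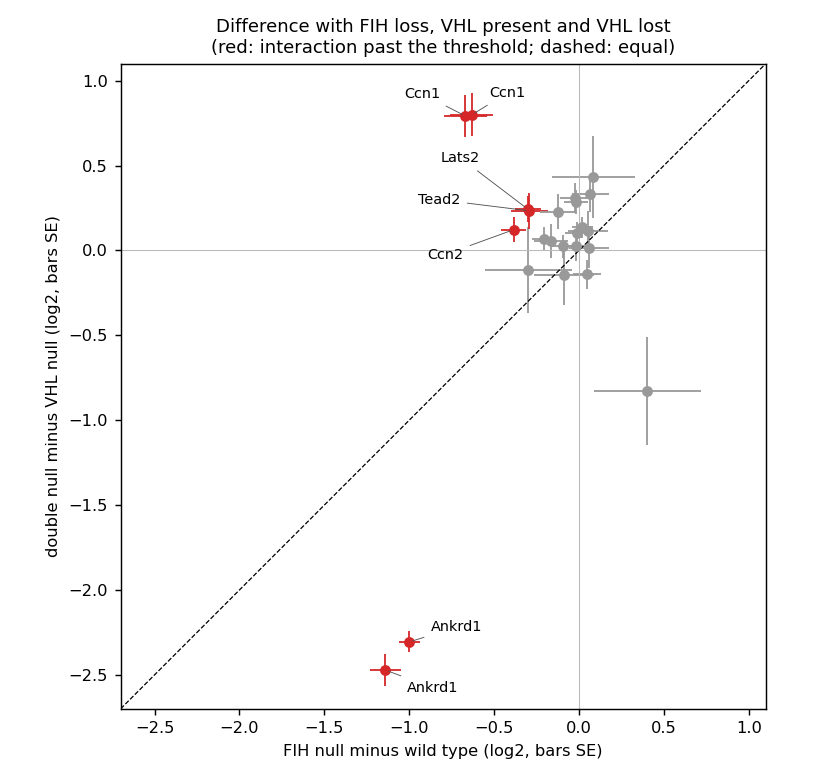
Log2 difference with FIH loss in cells with VHL (x axis) and in cells without VHL (y axis) for the 24 member probe sets, with SE bars, the line of equality, and red for an interaction past the threshold. Ankrd1 lies far below the line, Ccn1's dimmer pair far above it, and Ccn2, Lats2 in its brightest probe set and Tead2 somewhat above.

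Other genes of the pathway were taken from lists, each gene by its brightest tested probe set. The lists too were chosen with earlier results of these data known, so their counts and medians are a description. Of 31 core Hippo genes 30 were tested, all but Stk3. In FIH null cells 0 rose and 1 fell by limma (1.39% and 3.89% of all genes, 5.29% in all), with 3 each way at an unadjusted p under 0.05. In VHL null cells 7 rose and 11 fell (14.4% and 27%, 41.4% in all), and in double null cells 9 rose and 10 fell (16.7% and 22.3%, 39.1% in all). Median log2 differences of the list were -0.048, -0.19 and -0.027, beside -0.0024, -0.10 and -0.05 over all genes, and called genes lay in both directions. The double null count of 19 was 12 without wild type replicate 2. The gene that fell in FIH null cells was Fat4, a giant cadherin, which read 1407 and 1222 in wild type, 328 and 254 in FIH null, 787 and 1075 in VHL null and 2444 and 3054 in double null cells. FIH null replicate 2 was below the cutoff, and the log2 differences were -2.12 in FIH null and 1.55 in double null against VHL null cells (limma adjusted p = 0.000105 and 0.000219), opposite in sign. Vgll3, a TEAD cofactor gene, rose in VHL null (0.69) and double null cells (0.999; limma adjusted p = 1.55e-05 and 6.21e-07), reading 20023 and 20694 in wild type, 17864 and 18880.2 in FIH null, 33328 and 32520.1 in VHL null and 41730.1 and 39682 in double null cells. Rassf1, a partner of the MST kinases, rose by 0.54 and 1.001, the first a call that ended with scaling to hybridization controls (limma adjusted p = 0.0783). Nf2, the gene of the upstream activator merlin, fell by 0.53 in VHL null cells and the angiomotin gene Amot by 0.73 (limma adjusted p = 0.000543 and 0.000132). Wwc1, which encodes KIBRA, and the LIM-domain gene Wtip fell in double null cells (-1.15 and -0.75). Between double null and VHL null cells 9 rose and 6 fell (20.7% and 14.3% of all genes, 35% in all). Among them were Fat1 (0.95) and the LATS cofactor gene Mob1b (-0.47). Between double null and FIH null cells 9 rose and 9 fell (19.7% and 23.9%, 43.6% in all). Dchs1 was above the cutoff only on the 2 VHL null arrays (318.9 and 327.3) and read 72.4 and 39 in double null cells. It thus passed the filter only through the group where it was high, and its difference is no support. The interaction passed above 0 for 6 and below 0 for 3 genes of this list (11.9% and 7.19% of all genes, 19.1% in all), a count of 9 that was 4 without either FIH null array and 5 without wild type replicate 1, VHL null replicate 1 or double null replicate 2.

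A list of 17 further YAP/TAZ targets, 16 of them tested (all but Fjx1), held called genes in both directions. With limma 0 rose and 1 fell in FIH null cells (1.39% and 3.89% of all genes; 0 and 6 at an unadjusted p under 0.05; none fell without wild type replicate 2 or FIH null replicate 1, and 2 fell without either double null array), in VHL null cells 4 rose and 5 fell (14.4% and 27% of all genes), and in double null cells 2 rose and 4 fell (16.7% and 22.3%). Median log2 differences were -0.094, 0.016 and -0.058, beside -0.0024, -0.10 and -0.05 over all genes. Between double null and VHL null cells 2 rose and 5 fell (20.7% and 14.3%), a count of 7 that was 3 without VHL null replicate 1 or double null replicate 2 and 4 without VHL null replicate 2, and between double null and FIH null cells 5 rose and 4 fell (19.7% and 23.9%). Igfbp3 was above the cutoff only on the 2 double null arrays (315.5 and 308.9) and read 61.9 and 137.8 in FIH null cells. It thus passed the filter only through the group where it was high, and its difference is no support. F3, the gene of tissue factor, followed Ccn2. It read 7236 and 8148 in wild type, 5513 and 5916 in FIH null, 15874 and 15894 in VHL null and 18521 and 16320 in double null cells, with log2 differences from wild type of -0.43, 1.05 and 1.18 (limma adjusted p = 0.0142, 9.58e-06 and 2.4e-06), the first a call that ended without wild type replicate 2 (0.106) or FIH null replicate 1 (0.133) and without a variance trend (0.116). The growth factor gene Tgfb2 fell by 0.81 with VHL lost and 0.64 with both lost (limma adjusted p = 0.000108 and 0.000373). The phosphatase gene Ptpn14 fell by 0.54 in VHL null cells and was 0.65 higher in double null than in VHL null cells. Arhgef17 fell in VHL null cells (-0.74), and Ccdc80 (-0.66) and Asap1 (-0.45) fell in double null cells. Nt5e fell by 0.89 on the log2 scale from VHL null to double null cells (limma adjusted p = 0.0153), a call that ended without VHL null replicate 1 (0.0551) or 2 (0.0911) or double null replicate 2 (0.101).

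Ccn1, Ccn2 and Ankrd1 are also targets of the serum response factor (SRF), whose cofactors respond to actin. Of 16 actin and SRF genes, 0 rose and 3 fell by limma in FIH null cells (1.39% and 3.89% of all genes; 1 and 5 at an unadjusted p under 0.05). There were 2 that rose and 4 that fell in VHL null cells (14.4% and 27%), and 7 and 3 in double null cells (16.7% and 22.3%). Of the double null rises, that of Tpm2 (0.41) turned to -0.12 with scaling to hybridization controls. Medians of the log2 difference were 0.02, -0.10 and 0.14, beside -0.0024, -0.10 and -0.05 over all genes. The VHL null count of 6 was 3 without either wild type array or VHL null replicate 2, and the double null count of 10 was 5 without wild type replicate 2. Cnn1, the calponin gene, read 3544 and 3737 in wild type, 2454 and 2158 in FIH null, 5142 and 4979 in VHL null and 10874 and 9027 in double null cells, with log2 differences of -0.66, 0.47 and 1.44 (limma adjusted p = 0.00372, 0.00446 and 2.4e-06), the VHL null call ending with scaling to hybridization controls (0.416) and the FIH null call without a variance trend (0.0552). Smooth muscle actin Acta2 read 29785 and 30482 in wild type, 25369 and 24474 in FIH null, 14579 and 14201 in VHL null and 31539 and 28414 in double null cells, lowest in VHL null cells (log2 difference -1.07 from wild type, limma adjusted p = 1.52e-06), and Actg2 fell in all 3 null groups (-1.65, -1.25 and -2.07). Between double null and VHL null cells 9 rose and 1 fell (20.7% and 14.3% of all genes), with Acta2 (1.06), Myl9 (1.01) and Cnn1 (0.97) up, beside -2.47 for Ankrd1. The rise brought Acta2 back near its wild type signal. Actg2 was lower in double null cells, as Ankrd1 was, at 464 and 419.4 against 698.6 and 907 in VHL null cells. Between double null and FIH null cells 8 rose and 1 fell (19.7% and 23.9%), a count of 9 that was 4 without FIH null replicate 2, and the gene that fell was Zyx (-0.47).

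**Figure D5:**
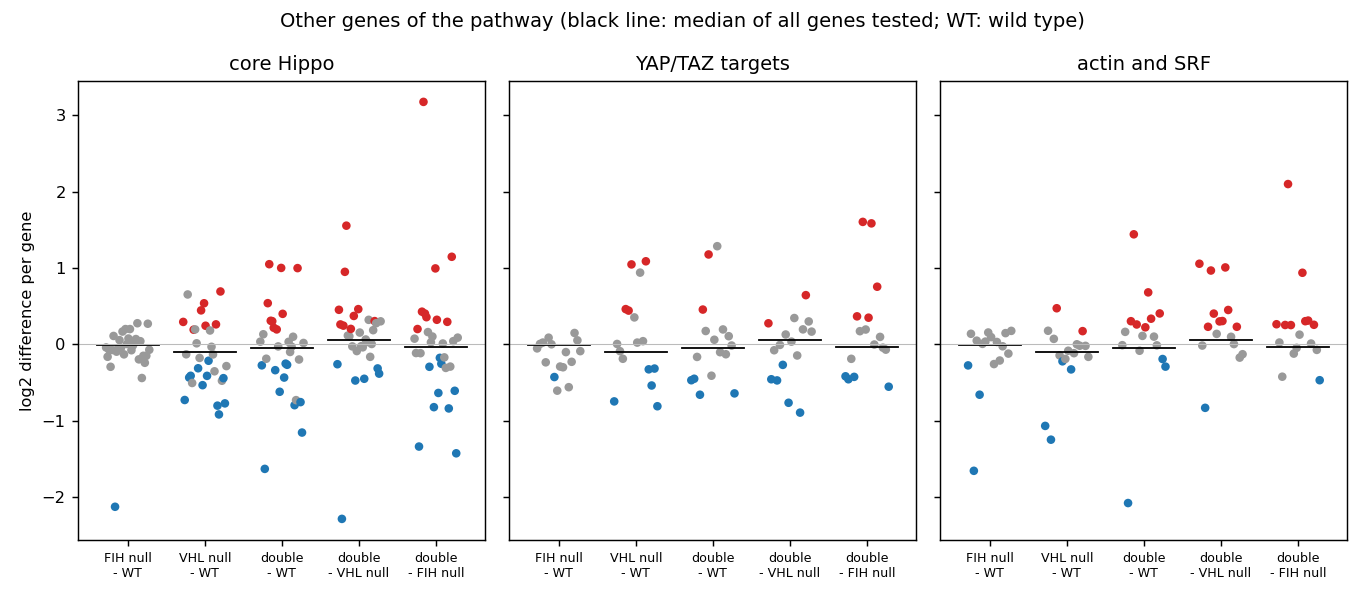
Log2 difference (y axis) of each tested gene of the core Hippo, YAP/TAZ target and actin and SRF lists in 5 comparisons (x axis), red for higher, blue for lower and grey for not past the threshold, with a black line for the median of all genes tested. Called genes lie on both sides of 0 in VHL null and double null cells, and in FIH null cells 1, 1 and 3 genes are called, all lower.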

How the data were processed

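Total RNA of 8 arrays (Affymetrix Mouse Genome 430 2.0), 2 per group, was analysed. The deposited values are linear intensities, MAS5 signals per the submitters' processing notes, whose version is not given in the sources used here, and each array's trimmed mean was equal. Signals were used as deposited after log2(signal + 16). Probe sets were named through the platform annotation, with symbols updated by Entrez number: 34945 carried 1 gene symbol, 932 more than 1, and 9160 none or no entry. Groups were fitted together with limma 3.58.1 in R 4.3.3 (lmFit, eBayes with a variance trend, residual degrees of freedom 4, prior 6.42), two-sided, on 24517 probe sets, and the code was tested on simulated data. List counts use the brightest tested probe set of each of 11561 genes. List genes named are the 4 with the smallest p per comparison, or fewer. Members and lists were chosen with earlier results of these data known. Other settings tried are in the closing section. TEAD, HIF and SRF letters were searched in RefSeq promoters of GRCm38.p6.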

Additional observations from a re-analysis of the deposited data

Results flagged for a closer look

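The log2 difference with FIH loss was unlike between cells with and without VHL in 7 member probe sets by limma's interaction test. It is given as the difference in cells without VHL minus that in cells with VHL. Tead2 (1448519_at) was at 0.52 (SE 0.152, limma adjusted p = 0.0411). Lats2 (1439441_x_at) was at 0.55 (SE 0.108, limma adjusted p = 0.00713). No other Lats2 probe set passed, and 1426156_at was at -1.23. Ccn1 (1442340_x_at) was at 1.43 (SE 0.18, limma adjusted p = 0.000538). Ccn1 (1457823_at) was at 1.46 (SE 0.177, limma adjusted p = 0.000415). Ccn2 (1416953_at) was at 0.51 (SE 0.104, limma adjusted p = 0.00878). Ankrd1 (1420991_at) was at -1.33 (SE 0.131, limma adjusted p = 0.000116). Ankrd1 (1420992_at) was at -1.31 (SE 0.0883, limma adjusted p = 8.39e-06). All 7 had 2 arrays in each group, and the cause was not tested. Each null genotype had its own parent line, so genotype and line cannot be told apart here.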

How the results depend on the processing

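Pseudocounts of 1 and 64, a filter at the 75th percentile (2459), no filter, quantile normalization, median centring, scaling to hybridization controls, array weights, no variance trend, only the compared groups, 1 probe set per gene, no _x_at or _s_at probe sets, a replicate block, a 2-fold minimum and each array left out were tried. Counts are called features in FIH null, VHL null and double null against wild type, double null against VHL null and against FIH null cells, and the interaction, in that order; the main member counts were 5, 14, 13, 8, 17 and 7. Whether arrays were paired by number is not stated. The replicate difference of a group correlated with that of another at r from -0.0161 to 0.0316, which cannot show that no pairing existed. With the replicate block the member counts were 6, 15, 14, 8, 18 and 9. At least 2-fold, the counts were 1, 3, 6, 2, 3 and 4 for members, 1, 0, 4, 2, 4 and 1 for core Hippo genes (main 1, 18, 19, 15, 18 and 9), 0, 2, 1, 0, 2 and 0 for targets (main 1, 9, 6, 7, 9 and 3) and 1, 2, 2, 2, 1 and 3 for actin and SRF genes (main 3, 6, 10, 10, 9 and 5). With 1 probe set per gene, which tests 10 members, the member counts were 3, 7, 8, 3, 9 and 5. Without a variance trend they were 2, 11, 12, 5, 13 and 4, with interactions of 4 core Hippo, 0 target and 3 actin genes, and with 0 target and 1 actin genes in FIH null, 3 actin genes in VHL null cells and 4 targets between double null and VHL null cells. Scaled to hybridization controls, FIH null counts were 16 members, 16 core Hippo genes, 11 targets and 10 actin genes, with 15 actin genes in VHL null cells, 13 targets in double null cells and 8 actin interactions. Other FIH null counts were 3 core Hippo genes with median centring and 0 at the 75th percentile, 2 targets with quantile normalization, array weights or only the compared groups, and 5 actin genes with quantile normalization. Without a filter there were 5 core Hippo interactions and 4 targets between double null and VHL null cells, the latter also with array weights (4), and without _x_at and _s_at probe sets 5 members there. With 1 array left out, ranges were 2 to 6, 8 to 14, 12 to 14, 5 to 7, 12 to 18 and 6 to 10 for members, 1 to 1, 13 to 19, 12 to 20, 11 to 15, 12 to 17 and 4 to 10 for core Hippo genes, 0 to 2, 6 to 9, 5 to 7, 3 to 5, 6 to 9 and 2 to 3 for targets and 2 to 3, 3 to 9, 5 to 8, 7 to 10, 4 to 9 and 3 to 6 for actin genes. Scaling to hybridization controls, which subtracts up to 0.52, turned the log2 difference of Yap1 1448363_at to -0.24, -0.31 and -0.32 against wild type and -0.085 against FIH null cells, of Wwtr1 1417818_at to -0.29, -0.41 and -0.057 (VHL null and double null against wild type, double null against FIH null), of Lats1 1435739_at to -0.044 and -0.088, of Lats2 1437101_at to -0.33 in double null cells, of Amotl2 to -0.15 and -0.23 and of Tpm2 to -0.12 in double null cells. The number of arrays limits every value. The cause of other shifts was not tested.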

Other observations

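Genes were ranked by how closely their log2 signals followed each target gene over the 8 arrays (Pearson's r over 11560 other tested genes, given as a description). Closest to Ccn2 were Sat1 (r = 0.999), Ndrg1 (r = 0.998), F3 (r = 0.997). Sat1 encodes a polyamine acetyltransferase, Ndrg1 is a hypoxia-inducible gene, and F3 was also on the list of YAP/TAZ targets. Closest to Ankrd1 were Tgfbi (r = 0.993), Pla2g7 (r = 0.992), Pou3f1 (r = 0.992), of which Tgfbi encodes a matrix protein induced by TGF-beta. Pou3f1 was above the cutoff on 2 arrays only, those of VHL null cells, where Ankrd1 was also highest, so its coefficient rests largely on signals below the cutoff. Closest to Ccn1 were Arf2 (r = 0.99), Pdgfa (r = 0.988), Zfp809 (r = 0.988), with the growth factor gene Pdgfa among them, and closest to Amotl2 were Vmp1 (r = 0.993), Tmem115 (r = 0.985), Dop1a (r = 0.984). The 8 arrays form 4 groups of close pairs, so these coefficients rest on few separate levels.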
